A study of Mus musculus with 3 samples.

Results

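The genes of eicosanoid synthesis, breakdown and response were examined in mouse bone marrow-derived dendritic cells (BMDC), as 41 genes listed by their function. A gene entered through the probe sets that name it alone in the platform annotation, and took the one with the highest mean over the arrays. With this rule 40 of the 41 genes were measured, out of 19938 genes in all, and Ptgs1 had no probe set of its own among those used here. Total RNA was profiled on 3 Affymetrix whole-transcript arrays, 1 per sample. All 3 samples were marrow cultures of the inbred strain C57BL/6J, plated at 2000000 cells per well and grown for 9 days with GM-CSF and IL-4 at 20 ng/ml each. The samples form 1 group that shares both cytokines, no untreated culture is among them, and the labels give neither the age of the mice nor whether the samples came from separate animals. No comparison between conditions can be made, so the values describe which genes of the pathway were detected and how far the arrays differed, and the spread may be technical.

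Eicosanoids are short-lived lipid signals made from arachidonic acid, which phospholipases cut from membrane phospholipids. Cyclooxygenases turn it into prostaglandin H2, from which terminal synthases make prostaglandins, prostacyclin and thromboxane, while lipoxygenases lead to leukotrienes and hydroxy acids. In dendritic cells these lipids are known to act on migration to lymph nodes, on cytokine output and on antigen uptake, through G protein-coupled receptors on the same or on neighbouring cells. They are ended by oxidation, reduction, hydrolysis and export.

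Values are log2 expression after robust multi-array average (RMA) processing, and a gene was called above background where it exceeded, in each array, the 95th percentile of 1205 probe sets of olfactory and vomeronasal receptors, taken as a stand-in for silent genes. The limit was 5.54, 5.54 and 5.55 in replicates 1, 2 and 3. A level cannot be set against that of another gene, since probe sets bind with different strength. An SD of 0 is no measure of precision here, because many deposited values were the same in all arrays. The defining markers of the labelled cell type were detected in part. Of 10 dendritic cell markers 8 (80%) were above background, against 60.5% of all genes, and Flt3 and Cd209a were below it. Of the 8, Zbtb46 lay at 6.36 in each array, under the 6.91 of the myelin gene Mbp, so its call does not by itself show a transcript. All 9 measured macrophage markers were above background as well. Replicate 3 stood apart for several other marker lists, whose values are given beside the differences between arrays.

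Of the 40 measured eicosanoid genes, 32 (80%) were above background in all 3 arrays, against 60.5% of all genes. Of 45 measured genes listed as typical of other tissues 13 (28.9%) passed the same limit, among them the myelin gene Mbp at 6.91 in each array, so a call in this range, such as those of Hpgds, Ptger1 and Ptgds, does not by itself show a transcript. Ptgdr was above it in 2 arrays and 7 genes were in none. The median over the 40 probe sets was 7.35 and that over all genes 6.12, values that describe probe sets and not amounts of transcript. Both the leukotriene chain and the prostanoid chain were detected from the release of arachidonate to a receptor, while the lipoxygenases other than Alox5 and Alox15, the receptors Ptger3 and Ptgfr and the breakdown enzymes Hpgd and Ephx2 were not. In bulk RNA a low value from fewer expressing cells and one from less RNA per cell cannot be told apart. Under a stricter limit, the 99th percentile of the same receptors, 27 of the 40 genes (67.5%) were above the limit, against 46.2% of all genes. Alox15, Ptgds, Ptger1 and Tbxa2r passed it in no array and Cysltr2 in 2.

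**Figure D1:**
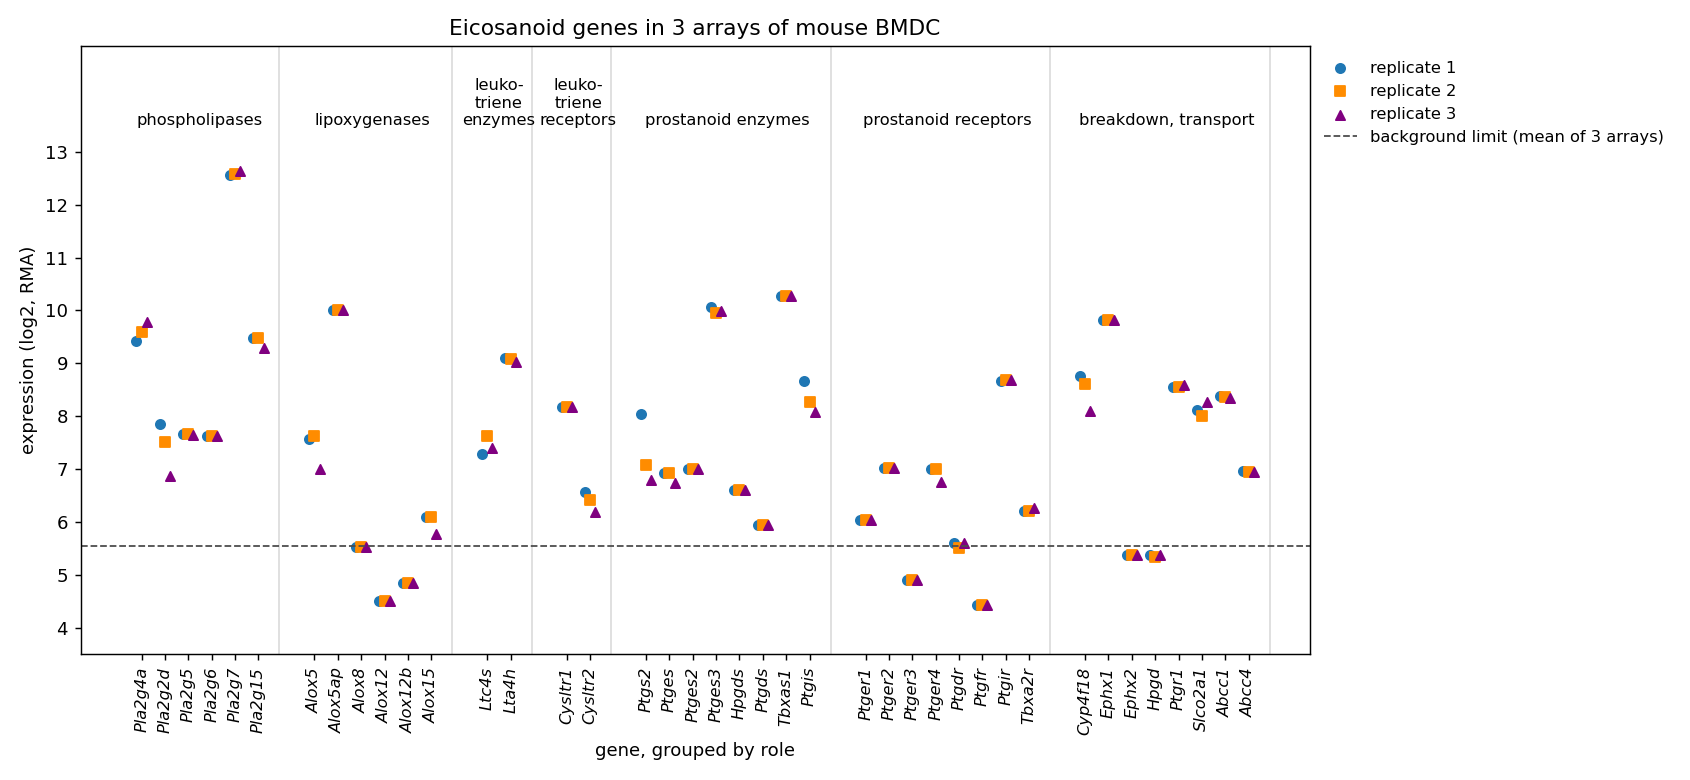
Expression (log2, RMA) of the 40 measured eicosanoid genes, grouped by role, with 1 point for each of replicates 1, 2 and 3 and a dashed line at the mean background limit. In the plot 32 genes lie above the limit in every array, and Ptgs2 and Pla2g2d show the widest gaps between arrays.

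All 6 phospholipase genes were above background, as 60.5% of all genes were. Pla2g4a encodes the cytosolic phospholipase that prefers arachidonate, and it had 9.43, 9.60 and 9.78 in replicates 1, 2 and 3 (9.60 ± 0.17, SD, n = 3). It was lowest in replicate 1 and highest in replicate 3, by 0.35 log2 units or 1.27-fold. Pla2g7, the secreted hydrolase of platelet-activating factor, had 12.55, 12.58 and 12.63, so the arrays lay within 0.08 log2 units. Pla2g15, a phospholipase of the lysosome, had 9.48, 9.47 and 9.30, lowest in replicate 3. The calcium-independent enzyme Pla2g6 had 7.63 in each array, and the secreted enzyme Pla2g5 had 7.67, 7.67 and 7.64. Pla2g2d, another secreted phospholipase, differed most in this group, with 7.85, 7.52 and 6.87. Its span of 0.99 log2 units, a 1.98-fold difference, contrasts with the 0.03 of Pla2g5, which is the next protein-coding gene on chromosome 4.

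Every measured gene leading from arachidonate to leukotrienes B4 and C4 was above background. Alox5, the lipoxygenase that starts leukotriene synthesis, had 7.56, 7.63 and 7.00 (7.40 ± 0.35, SD, n = 3), with replicate 3 below the others. Alox5ap, the membrane protein that presents arachidonate to it, had 10.02 in each array. Lta4h, which makes leukotriene B4, had 9.10, 9.08 and 9.02 (9.07 ± 0.04, SD, n = 3). Ltc4s, which joins glutathione to make leukotriene C4, had 7.28, 7.63 and 7.41 (7.44 ± 0.18, SD, n = 3), and its highest value was in replicate 2. Both receptors of the cysteinyl leukotrienes were above background. Cysltr1 had 8.17 in each array, whereas Cysltr2 had 6.57, 6.41 and 6.20 and lay above the stricter limit in 2 arrays.

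The remaining lipoxygenases were near or below the limit. Alox15, which oxygenates arachidonate and linoleate and is known as an IL-4-induced gene of myeloid cells, had 6.09, 6.09 and 5.78. It thus exceeded the limit by as little as 0.22 log2 units, in replicate 3. Alox8 had 5.52 in each array, 0.03 below the limit of replicate 3. Alox12, the platelet-type enzyme, had 4.50 and Alox12b, an enzyme of the skin barrier, had 4.84, both in each array. Alox12b and Alox8 are neighbours on chromosome 11, as are Alox12 and Alox15 with Alox12e between them, and of these genes Alox15 alone was above background. Alox12e (4.79) and Aloxe3 (5.14) lay below it too.

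All 8 measured genes of prostanoid synthesis were above background, as 60.5% of all genes were. Ptgs2, the inducible cyclooxygenase, had 8.05, 7.08 and 6.79 (7.31 ± 0.66, SD, n = 3). Replicate 1 was above both others, by 0.97 log2 units over replicate 2 and 1.26 over replicate 3, a 2.39-fold difference. Ptgs2 was the 1 gene of the 32 that spanned more than 1 log2 unit, as 0.497% of all genes above background did. For prostaglandin E2, the inducible synthase Ptges had 6.92, 6.92 and 6.75, and Ptges2 had 7.00 in each array. Ptges3, also known as the Hsp90 cochaperone p23, had 10.07, 9.96 and 9.98. It is the 1 measured gene of the 40 with several probe sets, and the other two had 8.29, 8.15 and 8.04, and 9.29, 9.20 and 9.20. RefSeq lists a pseudogene, Ptges3-ps, so signal from near-identical copies in these values was not tested.

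Synthases of the other prostanoids were all above background. Tbxas1, thromboxane synthase, had 10.27, 10.28 and 10.28. Ptgis, prostacyclin synthase, had 8.66, 8.27 and 8.08 (8.34 ± 0.29, SD, n = 3), highest in replicate 1. The 2 synthases of prostaglandin D2 each had the same value in all arrays. Hpgds, the haematopoietic type, had 6.61, and Ptgds, the lipocalin type, had 5.94, below the stricter limit.

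Of the 8 prostanoid receptors 5 (62.5%) were above background, a share near the 60.5% of all genes. Ptger2 had 7.02 in each array and Ptger4 had 7.00, 7.00 and 6.75, both receptors for prostaglandin E2 that raise cyclic AMP. Ptger1, which acts through calcium, had 6.04 in each array, and Ptger3, which lowers cyclic AMP, lay below background at 4.91. Ptgir, the prostacyclin receptor, had 8.67, 8.69 and 8.69. Tbxa2r, the thromboxane receptor, had 6.22, 6.22 and 6.27. Ptgdr, a receptor for prostaglandin D2, had 5.60, 5.51 and 5.60, on either side of the limit, and it is the neighbour of Ptger2 on chromosome 14. Ptgfr, the receptor of prostaglandin F2 alpha, had 4.44 in each array. Prostacyclin, thromboxane and prostaglandin E2 thus had a synthase and a receptor above background. For thromboxane the receptor call is weak, since Tbxa2r passed the stricter limit in no array. For prostaglandin E2, Ptger2 and Ptger4 passed that limit in all 3 arrays and Ptger1 in none. Ptger4 at 6.75 in replicate 3 lay under the 6.91 of the myelin gene Mbp. For prostaglandin D2 both synthases were above background and neither Ptgdr nor Ptgdr2 (5.26 in each array) was in every array.

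Of the 8 genes of breakdown and transport, 6 (75%) were above background, against 60.5% of all genes. Ephx1, the microsomal epoxide hydrolase, had 9.83 in each array, whereas Ephx2, the soluble enzyme that hydrolyses epoxides of arachidonate, lay below the limit at 5.39. Hpgd, which starts prostaglandin inactivation by oxidation, had 5.38, 5.34 and 5.38 and lay below it as well. Both were close to it, at -0.17 to -0.15 log2 units from the limit for Ephx2 and -0.20 to -0.16 for Hpgd. The uptake transporter Slco2a1, which brings prostaglandins to that enzyme, was detected at 8.11 in replicate 1 and 8.28 in replicate 3 (8.13 ± 0.14, SD, n = 3), with replicate 2 lowest, 0.27 below replicate 3. Ptgr1, a reductase of the following step that also inactivates leukotriene B4, had 8.55, 8.55 and 8.60. Cyp4f18, which inactivates leukotriene B4 by oxidising the end of its chain, had 8.76, 8.62 and 8.09 (8.49 ± 0.35, SD, n = 3), lowest in replicate 3. The exporters Abcc1, for leukotriene C4, and Abcc4, for prostaglandins, had 8.38, 8.37 and 8.35, and 6.96, 6.95 and 6.95.

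Other genes of the pathway were listed by function. Of 75 genes 63 were measured and 34 (54.0%) were above background, a share below the 60.5% of all genes. Among arachidonate reacylation genes 7 of 9 were above it, with Acsl4 at 9.49, 9.49 and 9.55 and Acsl5 at 9.18, 9.13 and 9.09, which attach coenzyme A to fatty acids. Of the genes around the leukotriene chain 6 of 9 were above it. These included Dpep2 (9.63, 9.64 and 9.63), a dipeptidase that turns leukotriene D4 into E4, and Mgst1 (10.54, 10.54 and 10.62). Ggt5, which makes leukotriene D4, lay below background at 5.33, 5.31 and 5.31. Ggt1, the other gamma-glutamyl transferase gene of that list, was not measured, so this step cannot be called undetected. Ltb4r1, the high-affinity receptor of leukotriene B4, had 7.27, 7.38 and 7.38, and 7 of 10 measured genes in its list of further receptors and related genes were above background. In the lists both branches of the leukotriene chain had a detected enzyme and a detected receptor. Prostaglandin reductases were above background in 4 of 5 cases, with Cbr1 at 7.62, 7.61 and 7.50 and Cbr3 at 6.67, 6.58 and 6.57.

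The remaining pathway lists were the oxygenases and the phospholipases. Of the 12 measured oxygenases 2 were above background, Cyp4f13 (8.53, 8.74 and 8.73) and Cyp4f16 (6.75, 6.75 and 6.81), both relatives of Cyp4f18. Of the 18 measured phospholipases and lipid hydrolases 8 were, among them Pla2g2e and Pla2g10 (5.88 in each array). Pla2g2e, a secreted phospholipase like Pla2g2d, had 6.76, 6.22 and 6.01 and was the 1 gene of the 34 that spanned more than 0.5 log2 units. It too was highest in replicate 1 and lowest in replicate 3. Pla2g2e lay below the stricter limit in replicates 2 and 3, and Pla2g10 in each array. Both lay under the 6.91 of the myelin gene Mbp in every array, so neither call by itself shows a transcript.

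A few eicosanoid genes differed widely between arrays and most differed little. Of the 32 above background, 5 (15.6%) spanned more than 0.5 log2 units, against 2.61% of all genes above background, and the median span was 0.06 against 0.01. These 5 were Ptgs2, Pla2g2d, Cyp4f18, Alox5 and Ptgis, with spans of 1.26, 0.99, 0.66, 0.63 and 0.57. Every 1 of the 5 was lowest in replicate 3, and 4 were highest in replicate 1, Alox5 being highest in replicate 2. Of the 315 genes above background that passed this span, 81.3% were lowest in replicate 3 and 75.6% highest in replicate 1, so the order of the arrays is that of most such genes. Without replicate 3 Ptgs2 alone passed this span, and without replicate 1 there were 3, namely Pla2g2d, Alox5 and Cyp4f18. At the other end 9 of the 32 (28.1%) had the same value in all arrays, against 46.5% of all genes above background. Of the 20 with a single lowest array, 13 (65%) were lowest in replicate 3, against 2443 of the 4615 genes above background that had one (52.9%), 5 were lowest in replicate 1 and 2, Ptges3 and Slco2a1, in replicate 2. Pla2g4a, Pla2g7, Ltc4s, Ptgir and Tbxas1 were the 5 lowest in replicate 1, the last 2 by 0.02 and 0.01.

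**Figure D2:**
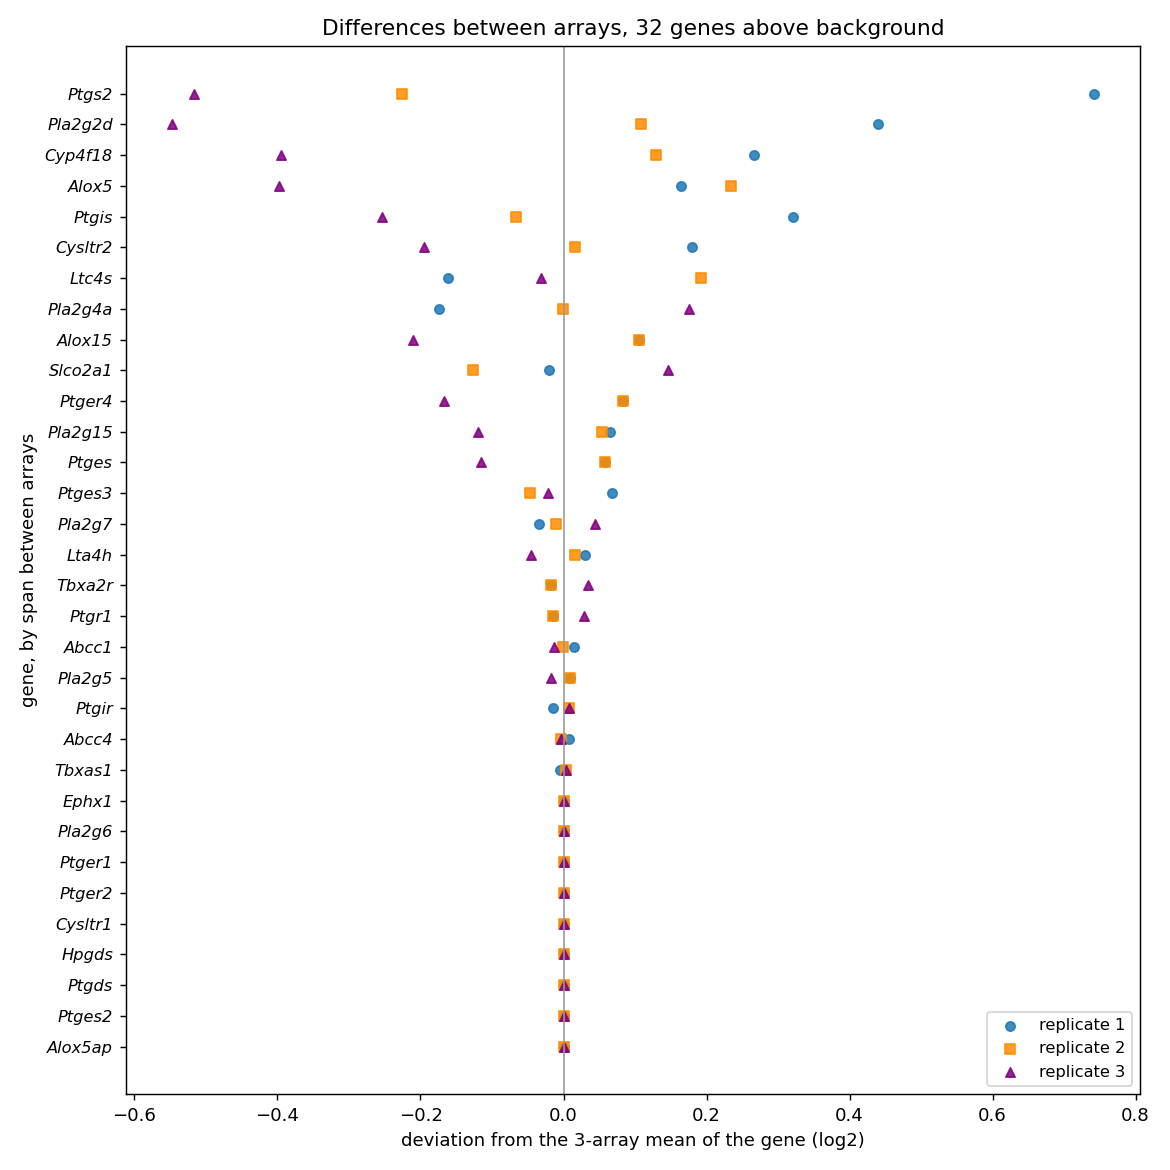
Difference between each array and the mean of the gene (log2, horizontal axis) for the 32 eicosanoid genes above background, ordered by span, with 1 point for each replicate. The 5 genes at the top span 0.57 to 1.26 and have replicate 3 at the low end, Pla2g4a has replicate 3 at the high end, and the 9 at the bottom do not differ.

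Promoter sequences are shown for 4 of the 5 genes with the widest span, and for Pla2g4a, which lies beside Ptgs2 on chromosome 1 and was highest in replicate 3. RefSeq promoters (build GRCm38.p6) were found for 34 of the 41 genes, and Ptgis had no entry. The 250 bases before the annotated start are printed 5′ to 3′ on the gene's strand, with motif matches in capitals. They lie at chr1:150099781-150100030 (plus strand) for Ptgs2, chr4:138775485-138775734 (plus strand) for Pla2g2d, chr6:116461179-116461428 (minus strand) for Alox5, chr8:72009627-72009876 (minus strand) for Cyp4f18 and chr1:149961291-149961540 (minus strand) for Pla2g4a, 1 of its 2 listed starts.
Ptgs2: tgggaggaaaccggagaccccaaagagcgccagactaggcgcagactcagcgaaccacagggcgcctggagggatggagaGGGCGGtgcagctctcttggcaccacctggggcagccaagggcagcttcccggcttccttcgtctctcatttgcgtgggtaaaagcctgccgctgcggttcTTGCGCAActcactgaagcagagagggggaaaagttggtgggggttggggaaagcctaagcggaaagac
Pla2g2d: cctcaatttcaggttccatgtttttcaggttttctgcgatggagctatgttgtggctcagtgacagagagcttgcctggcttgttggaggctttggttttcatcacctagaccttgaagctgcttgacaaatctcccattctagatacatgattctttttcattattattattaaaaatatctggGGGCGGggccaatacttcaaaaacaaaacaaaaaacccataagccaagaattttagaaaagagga
Alox5: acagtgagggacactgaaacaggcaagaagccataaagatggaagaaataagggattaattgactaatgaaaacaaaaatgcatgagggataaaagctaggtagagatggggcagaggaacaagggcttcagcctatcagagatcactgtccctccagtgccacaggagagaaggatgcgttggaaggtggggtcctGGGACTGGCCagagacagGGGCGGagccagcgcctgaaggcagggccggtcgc
Cyp4f18: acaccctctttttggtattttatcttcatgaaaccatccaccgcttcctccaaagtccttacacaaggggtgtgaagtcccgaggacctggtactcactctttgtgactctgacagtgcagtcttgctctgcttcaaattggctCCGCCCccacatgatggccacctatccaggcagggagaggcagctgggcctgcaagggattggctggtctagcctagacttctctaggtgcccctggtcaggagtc
Pla2g4a: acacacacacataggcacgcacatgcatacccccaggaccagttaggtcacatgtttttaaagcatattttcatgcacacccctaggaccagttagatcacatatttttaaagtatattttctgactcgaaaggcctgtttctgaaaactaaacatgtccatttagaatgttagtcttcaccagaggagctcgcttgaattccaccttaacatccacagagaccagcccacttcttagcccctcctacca

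Motifs were searched on both strands, over the 300 bases that end 50 bases after the start. They were the TATA box (TATAAA), the GC box (GGGCGG), the E-box (CACGTG) and sites of C/EBP (TTGCNNAA), STAT6 (TTCNNNNGAA) and NF-kB (GGGANNNNCC). A sequence like the cyclic AMP response element (TACGTCA), called the response element here, was searched too. The 34 genes have 38 listed starts and each gene counts once, whereas the share of all promoters counts each start. The GC box was found in Ptgs2, Pla2g2d, Alox5 and Cyp4f18, in 22 of the 34 eicosanoid genes (64.7%) and in 35.7% of 32851 promoters. Ptgs2 also held the C/EBP letters 69 to 62 bases before its start, which 6 of the 34 genes (17.6%) and 10.8% of all promoters had. Past its start it held the response element overlapping the E-box, in capitals in ccacTACGTCACGTGgagt (chr1:150100038-150100056, plus strand). The response element was in 1.27% of all promoters and in Ptgs2 alone of the 34. Its presence in Ptgs2 was assumed when the search was written, so it is no finding about that gene. The E-box was in 3 of the 34 (8.82%) and 7.15% of all promoters. The NF-kB letters overlapped no other match in Alox5, and were in 9 of the 34 (26.5%) against 20.7% of all promoters. STAT6 letters were in Cysltr2, Ptges and Tbxas1 (8.82% of the 34) against 6.95% of all promoters, and the TATA box was in 5 of the 34 (14.7%) against 13.6%. The printed window of Pla2g4a held no match, and its TATA box, counted among the 5, was at its other listed start. A match is a description of the letters and not a bound site.

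Marker lists of other cell types also differed between arrays. Of the lymphocyte and natural killer list 9 of 11 genes were above background, all 9 lowest in replicate 3, and the summed log2 level of the list was 88.8, 85.5 and 79.5 in replicates 1, 2 and 3. Cd3e spanned 0.94 log2 units, and Cd3g, Il2rb, Gzma, Gzmb and Cd8a spanned 1.18 to 1.38, with Ncr1 below background in each array. Of the dividing cell list all 11 were above background and 10 were lowest in replicate 3, with sums of 91.3, 88.1 and 81.9. Mki67, Top2a, Ccnb2, Bub1, Rrm2 and Ccna2 spanned 1.05 to 1.46. The platelet list had 5 of 5 measured genes above background and sums of 38.3, 37.6 and 35.9. Its fall lay in Pf4, at 10.65, 10.39 and 9.59, and Ppbp, at 8.04, 7.56 and 6.64. Itga2b (6.33) and Gp9 (5.61) had the same value in each array, and Treml1 was highest in replicate 3, with 7.66, 7.73 and 7.75.

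The mast cell and neutrophil lists also differed through some of their genes. The mast cell and basophil list had 4 of 11 above background and sums of 63.6, 64.3 and 56.4. The mast cell protease gene Cpa3 had 7.38, 7.54 and 5.38 and the basophil protease gene Prss34 had 7.75, 8.24 and 6.38. Mcpt8 and Fcer1a spanned 1.29 and 1.06, the latter below background in each array together with Kit, Ms4a2 and Mcpt4. The neutrophil list had 5 of 12 above background and sums of 74.9, 73.9 and 67.3. Lcn2, a protein of neutrophil granules, had 7.98, 6.69 and 5.12, and Ly6g and Retnlg spanned 1.93 and 1.80. These 3 genes, Cpa3, Mcpt8 and Cxcr2 were above background in replicates 1 and 2 and below it in replicate 3. Retnlg was only just below it there, at 5.5455 against a limit of 5.553. Mmp8 had 9.16, 9.05 and 9.02, and Elane, Ltf and Ngp were below background throughout. Every marker list except the stromal one had its lowest sum in replicate 3, and so did all genes together. The direction is thus shared, but the size differed. The mean deviation of replicate 3 from the 3-array mean was -0.47 in the lymphocyte list and -0.48 in the dividing cell list. It was -0.27, -0.46 and -0.40 in the platelet, mast cell and neutrophil lists, against -0.0054 over all genes. The dendritic, macrophage, eosinophil, endothelial and B cell lists had -0.11 to -0.01. Ptgs2, Pla2g2d, Cyp4f18, Alox5 and Ptgis were lowest in replicate 3 too, as were 81.3% of genes above background with a span over 0.5 log2 units.

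Of the 11 stromal genes 9 were highest in replicate 1, Cxcl12 with a span of only 0.04, and Col3a1 and Lum had no single highest array. Of the 4866 genes above background with a single highest array, 1877 were highest in replicate 1. Among genes above background with a span over 0.5 log2 units, as Ptgs2 had, the share was 75.6%. The list had 4 of 11 above background in all arrays and sums of 76.1, 64.2 and 64.3. Its gap lay mostly in 4 genes, Dcn, Sparc, Lox and Bgn, with spans of 2.76, 2.30, 3.11 and 2.88. Decorin, a matrix protein encoded by Dcn, was at 8.12 in replicate 1 and at 5.36 and 5.41 in the others, while Col1a1 spanned 0.25 and Lum and Cxcl12 lay below background in each array. The dendritic cell markers had sums of 92.5, 93.1 and 92.1, with H2-Aa at 12.57 in each array and Itgax between 11.91 and 11.92. The macrophage markers had sums of 98.4, 97.6 and 96.7, with Adgre1 at 10.25, 10.18 and 10.04 and Cd68 between 12.22 and 12.23. Eosinophil markers (2 of 7 above background, Siglecf above and Epx below) had sums of 38.3, 38.3 and 37.2. Endothelial markers (4 of 7, Cdh5 above and Kdr below) had 37.4, 37.4 and 37.3, and B cell markers (2 of 6, Cd79b above and Cd79a below) 30.7, 30.4 and 29.9. The part of any of these cell types in the differences of the eicosanoid genes was not tested.

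**Figure D3:**
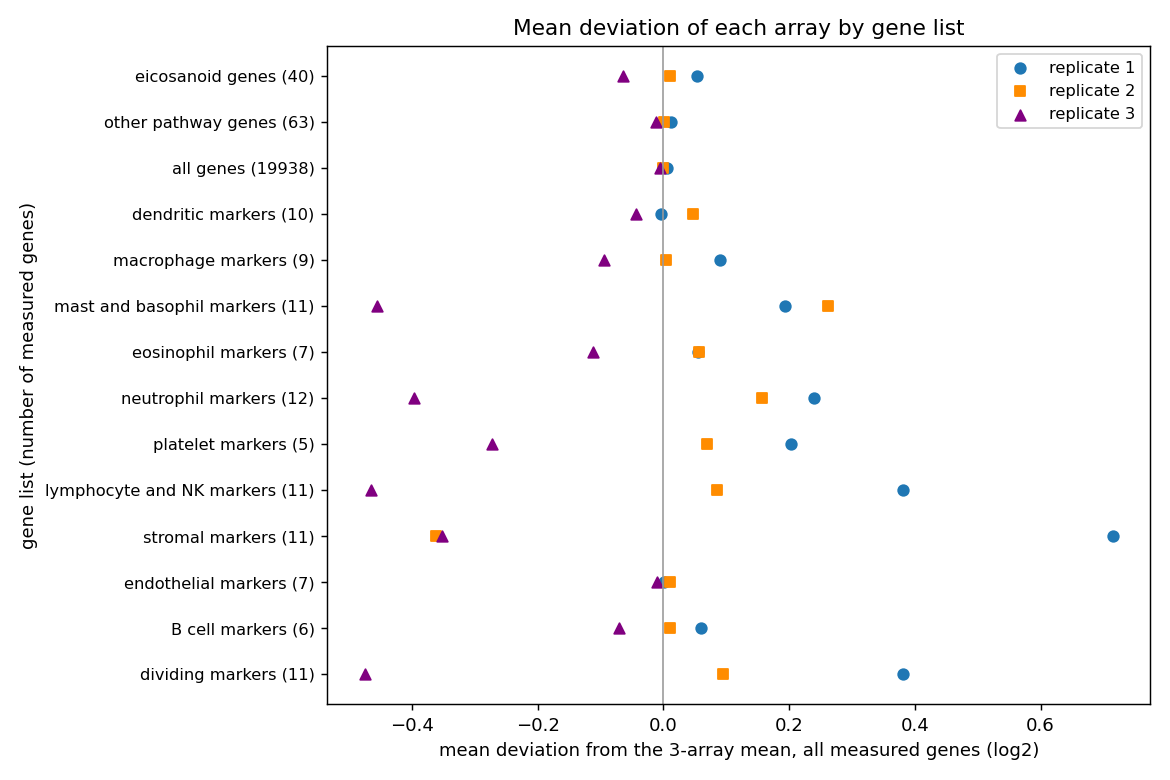
Difference between each array and the mean of the gene (log2, horizontal axis), averaged over all measured genes of a list, with 1 point for each replicate and the number of genes in parentheses. The 40 eicosanoid genes lie at 0.05, 0.01 and -0.06 in replicates 1, 2 and 3. Every marker list except the dendritic and endothelial ones has replicate 3 farther below 0, the dividing cell, lymphocyte and mast cell lists the farthest.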

How the data were processed

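The authors deposited 1 table of log2 values with a column for each of the 3 arrays, and RMA is named as the method per the submitters' processing notes. It corrects background, quantile normalizes arrays and summarizes probes by median polish, a step that can give arrays the same value. The sources used here do not name the software, its version or the build, and scanner files were not used here. The array medians were 5.91, 5.91 and 5.91, and with 3 arrays the precision is limited by their number.

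Of 35556 probe sets, 21789 name 1 gene in the platform annotation, 1621 name more than 1 and 12146 have no entry there. The Entrez identifiers of all 40 measured genes matched the RefSeq symbol. Calls, spans and motif counts were computed with Python 3.11.15, pandas 2.3.3 and numpy 2.4.6, and the counting was tested on simulated data. With 1 group no test was run. Members and lists were chosen with earlier results of these data known.

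All measured eicosanoid genes are named. From the other pathway lists the rule took the first 2 genes above background and those spanning over 0.5 log2 units, and from the marker lists the first 2 measured and those spanning over 1. Other genes named from these lists were chosen after their values were seen. Alternatives covered the background limit, the call, the choice of probe set, a shift of the arrays and leaving out each replicate.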

Additional observations from a re-analysis of the deposited data

How the results depend on the processing

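Leaving out each replicate in turn gave 1 to 5 genes spanning more than 0.5 log2 units, against 5 with all arrays, and a median level of the 40 genes from 7.10 to 7.51, against 7.35. With the span set at 1 log2 unit, 1 gene passed. The count of eicosanoid genes above background was 27 with the 99th percentile limit, 27 with a limit of 6.37 in each array from 45 genes of other tissues, and 32 or 33 under the other alternatives, and that of other pathway genes was 31 to 35 against 34. Shifting the arrays to a median deviation of 0 moved them by at most 0.02 log2 units and left 5 genes over the span, and the genes lowest in replicate 3 were 11 of 23 that differed between arrays, in place of 13 of 20 with a single lowest array. Without replicate 1 there were 14 of these and without replicate 2 there were 15, both tried after seeing the data. Ptges3 alone has several probe sets, so another choice of probe set could move no other level of the 40 genes. Its own level moved by more than its SD. No paired analysis was possible because all samples form 1 group. Signal over background limits Alox8, Alox15, Ptgdr, Ptgds, Ephx2 and Hpgd, which lie near the limit on either side.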

Other observations

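Genes of neighbouring lipid signals were measured as well. For platelet-activating factor, which Pla2g7 inactivates, the receptor gene Ptafr had 10.48, 10.48 and 10.49 in replicates 1, 2 and 3. Its synthesis gene Lpcat2 had 9.05, 8.93 and 8.65, lowest in replicate 3, while Lpcat1 had 8.07 in each array. Endocannabinoid hydrolysis, another source of arachidonate, was represented by Mgll (10.20, 10.20 and 10.20). The synthesis genes Daglb (10.18, 10.11 and 10.01) and Dagla (6.91 in each array) were above background too. Dagla had the same value as the myelin gene Mbp, so its call does not by itself show a transcript. Of the nuclear receptors for fatty acid derivatives, Pparg had 9.84, 9.73 and 9.68, lowest in replicate 3, and Ppard had 8.46, 8.52 and 8.65, highest there, while Ppara lay below background at 4.84. Cmklr1, a receptor for chemerin, had 8.73 in each array.

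Some eicosanoid genes had the same 3 values as probe sets of unrelated genes. This was so for 10 of the 40, all with the same value in every array, and for 13611 of all 35556 probe sets (38.3%). The values of Ptgfr were shared by 140 other probe sets, those of Alox12 by 102 and those of Ptger2, which was above background, by 19.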
